A study of Pan troglodytes with 6 samples.

Results

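Described here are 80 genes that build microtubules and neurofilaments or move cargo along microtubules, measured in the cerebellum and the liver of chimpanzees. They are the features of the array whose platform annotation gives exactly 1 gene symbol, where that symbol belongs to the kinesins (KIF, KIFC and KLC genes), the alpha-, beta-, epsilon- and gamma-tubulins and their complex, the microtubule-associated proteins MAP1A, MAP1B, MAP1S, MAP2, MAP4, MAP6, MAP7, MAP9 and MAPT, the end-binding proteins (MAPRE), the stathmins, the neurofilament chains, cytoplasmic dynein (DYNC and DYNL genes) or dynactin (DCTN). The rule goes by name and used no difference between tissues. It matched 81 features, of which STMN1 had 2 and kept the one with the higher mean over all arrays, and left 80 of the 12584 genes named on the array. A further 28 features carry several symbols, at least 1 of which meets the rule, and were not used, so that the alpha- and beta-tubulins analysed here are TUBA8, TUBAL3, TUBB4A and TUBB6 alone, and MAPT was not analysed here.

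RNA came from 3 cerebellum and 3 liver samples of Pan troglodytes, and was hybridised to Affymetrix Human Exon 1.0 ST arrays, whose probes follow human sequence. Both tissues carry the same labels of sex and age for each number: a female aged 27 years for replicate 1, a male aged 37 for replicate 2 and a male aged 30 for replicate 3. The labels state no treatment, and they do not say outright that cerebellum and liver of 1 number came from the same animal. The values are intensities that had the same distribution over 15143 features on every array, with a median of 96.3.

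Microtubules are hollow polymers of alpha- and beta-tubulin that give a cell its shape, serve as tracks for motor proteins and form the spindle of a dividing cell. Kinesins mostly walk toward the plus end of the microtubule and cytoplasmic dynein, with its activator dynactin, toward the minus end. In a neuron the plus ends point down the axon, so kinesins carry vesicles and mitochondria toward the synapse and dynein carries cargo back to the cell body, while structural MAPs space and stabilise the tracks and neurofilaments set the calibre of the axon. Hepatocytes, which are polarised epithelial cells, use microtubules to sort membrane proteins and to secrete plasma proteins.

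Markers went with the tissue labels. The summed intensity of 9 hepatocyte markers was 28061 to 33979 in liver and 139 to 207 in cerebellum, and that of 8 granule cell markers, the granule cell being the most numerous neuron of the cerebellum, was 9746 to 10976 in cerebellum and 234 to 276 in liver. A reading of about 10 means little signal on these arrays: the Y-linked genes EIF1AY and UTY read 8.48 and 11.7 in the cerebellum sample and -4.02 and 8.49 in the liver sample labelled female. Members whose mean lay under 38.3 in a tissue, the 25th percentile of all values, are called dim there. Of the 80 genes, 11 were dim in both tissues.

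More of these genes were higher in cerebellum than in liver. In a fit over all 15143 features on the scale log2(intensity + 16.8), 40 of the 80 were higher in cerebellum, 8 were higher in liver and 32 were not called (limma, Benjamini-Hochberg adjusted p under 0.05). Members were thus called toward cerebellum in 50% and toward liver in 10% of cases, beside 26.7% and 23.9% of all features (50.6% in either direction). The median log2 difference, cerebellum minus liver, was 0.49 over the 80 genes and 0.04 over all features. With a difference of at least 2-fold as well, 33 members were higher in cerebellum and 3 in liver, beside 17.2% and 15.8% of all features. The arrays of the tissues did not overlap for 41 members higher in cerebellum and 11 higher in liver, beside 31.0% and 28.5% of all features. Because bulk tissue was used, fewer cells of a type and less RNA per cell cannot be told apart in any of these differences.

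**Figure D1:**
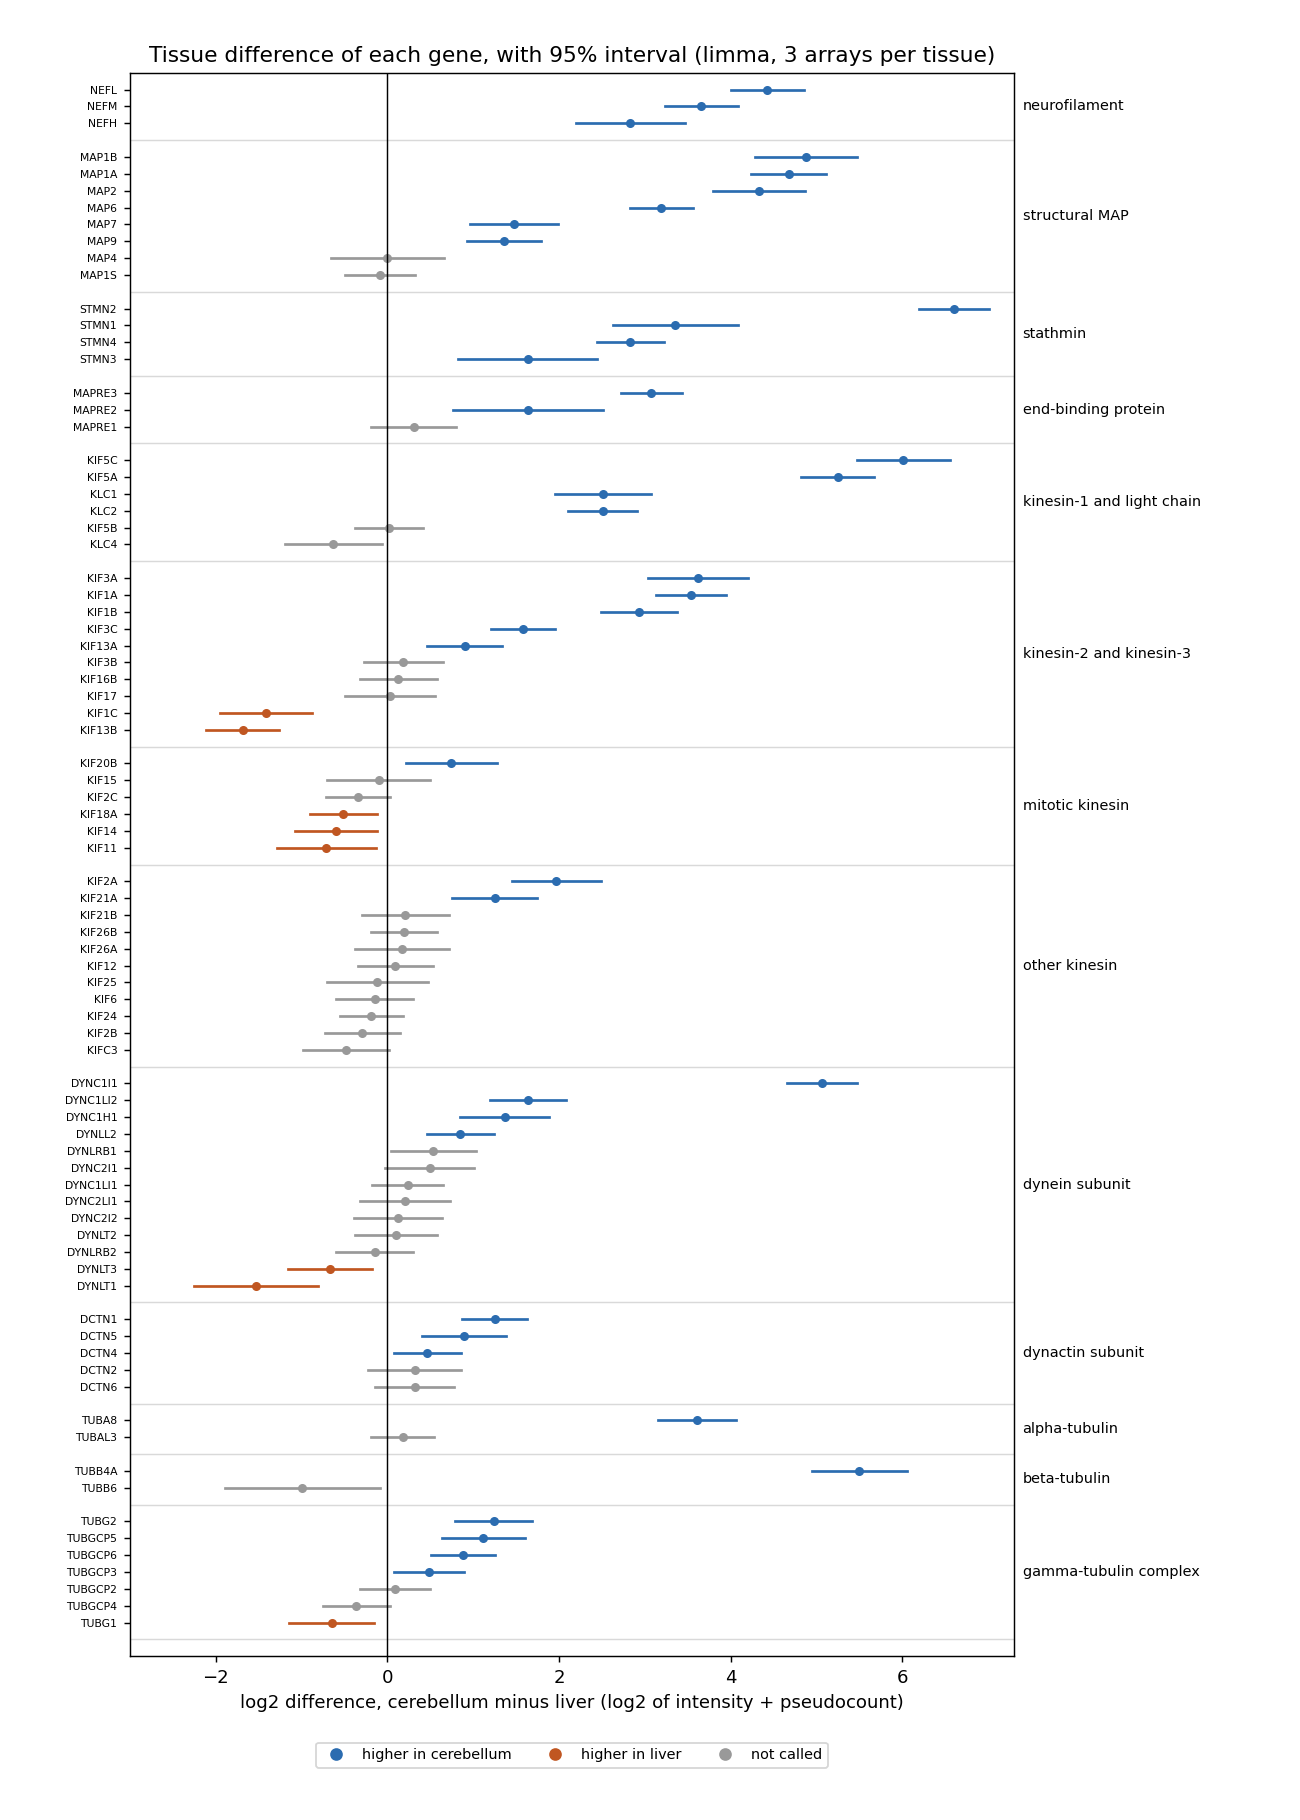
Log2 difference between cerebellum and liver of each of the 80 genes (points) with its 95% interval (lines), grouped by role, with values above 0 higher in cerebellum. Blue genes were called higher in cerebellum (40), orange genes higher in liver (8) and grey genes were not called (32), and STMN2 at 6.60 and KIF5C at 6.01 lie farthest on the cerebellum side, KIF13B at -1.69 farthest on the liver side.

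Each array was also scaled on 105 general genes (respiratory chain, proteasome and ribosomal protein genes) in place of the deposited scale. This moved every feature toward cerebellum, so it cannot test whether the balance toward cerebellum holds. That alignment moved the median difference of all features from 0.04 to 0.32, and then 44 members were higher in cerebellum and 3 in liver, so 93.6% of the members' calls pointed to cerebellum in place of 83.3% (66.8% in place of 52.8% for all features). The 3 that remained higher in liver were KIF13B, KIF1C and DYNLT1.

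All 3 neurofilament chains were higher in cerebellum, beside 26.7% of all features. NEFL, the light chain and core of the filament, was at 509, 732 and 610.0 in cerebellum and 11.96, 14.2 and 11.2 in liver. NEFM, the medium chain, was at 273, 375 and 292 in cerebellum and 10.6, 6.58 and 10.6 in liver. NEFH, the heavy chain, whose long tail projects from the filament, was at 137, 322 and 242 in cerebellum and 17.2, 17.7 and 15.5 in liver. No cerebellum array overlapped a liver array, beside 31.0% of all features that did not overlap in this direction. In liver all 9 readings were dim. The log2 differences were 4.43, 3.66 and 2.83 with standard errors of 0.19, 0.18 and 0.28 (limma adjusted p = 4.91e-07, 1.23e-06 and 5.25e-05). Within cerebellum all 3 chains were lowest in replicate 1 and highest in replicate 2. Markers of Purkinje cells, large neurons with long axons, had the same order, with summed intensities of 7278, 11457 and 8464 in replicates 1, 2 and 3 and 885 to 983 in liver, 8 of 8 measured markers being higher in cerebellum and none at or below 0. Astrocyte and Bergmann glia markers had this order too by their sums, 4776, 7573 and 5836 in cerebellum and 557 to 1359 in liver. Of these 6 markers, 4 were higher in cerebellum and none was at or below 0. Gene by gene, replicate 2 was highest for 8 of 8 Purkinje markers and 5 of 6 astrocyte markers. Replicate 1 was lowest for 5 and 4 of them, and replicate 3 for 3 and 2. Granule cell markers summed to 9746, 10539 and 10976 in replicates 1, 2 and 3, highest in replicate 3. The part of these cells in the neurofilament values was not tested. NEFM and NEFL lie next to each other in the chimpanzee RefSeq gene order (NHGRI_mPanTro3-v2.0).

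Of 8 structural MAP genes, 6 were higher in cerebellum (75%), 0 were higher in liver and 2 were not called. Over all features the shares were 26.7% and 23.9%. The median log2 difference of the 8 genes was 2.33. MAP1B, abundant in growing and mature axons, was at 2227, 1949 and 2189.6 in cerebellum and 46.1, 39.04 and 92.5 in liver. MAP1A, its partner in mature neurons, was at 702, 881 and 638 in cerebellum and 11.6, 16.98 and 9.86 in liver. MAP2, the classical MAP of dendrites, was at 1012, 797 and 923 in cerebellum and 26.2, 19.1 and 46.05 in liver. These 3 genes parted the tissues with no overlap, and their log2 differences were 4.88, 4.67 and 4.33 (SE 0.26, 0.19 and 0.23). MAP6, which makes microtubules resistant to cold, was at 222, 270.2 and 243 in cerebellum and 10.9, 11.7 and 12.95 in liver, a log2 difference of 3.19.

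Of the other structural MAPs, MAP7 and MAP9 were higher in cerebellum and MAP4 and MAP1S were not called. MAP7, a MAP of epithelial cells that recruits kinesin-1, was at 589, 361 and 365 in cerebellum and 155, 151 and 125 in liver, with cerebellum replicate 1 above the other two and a log2 difference of 1.47 (SE 0.23, limma adjusted p = 7.31e-04). MAP9, a MAP of the spindle and of axons, was at 69.4, 84.3 and 78.5 in cerebellum and 15.9, 16.9 and 28.4 in liver and differed by 1.35. MAP4, the ubiquitous MAP, was at 776, 564 and 494 in cerebellum and 589, 419 and 874 in liver. Its 2 tissues overlapped, and the difference was 0.00 with a 95% interval of -0.66 to 0.66. MAP1S, the small and widely expressed relative of MAP1A and MAP1B, was at 118, 147 and 107 in cerebellum and 142, 124 and 129.8 in liver, with a difference of -0.09 and an interval of -0.49 to 0.32. Both intervals hold 0, and that of MAP4 is the wider.

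All 4 stathmins, small proteins that bind free tubulin and promote disassembly of microtubules, were higher in cerebellum, beside 26.7% of all features. STMN2, the neuronal stathmin known from growing axons, was at 2852, 2715 and 2521 in cerebellum and 14.9, 12.6 and 6.84 in liver, and its log2 difference of 6.60 (SE 0.18) ranked 3rd among all 15143 features toward cerebellum. STMN1, which dividing cells and neurons express, was at 766, 682 and 629 in cerebellum and 30.4, 42.4 and 101 in liver, a difference of 3.35. STMN4, a stathmin of neurons, was at 90.3, 97.2 and 122 in cerebellum and -6.05, -4.20 and -6.21 in liver. Its liver readings were all below 0, so that its difference of 2.83 rests on the pseudocount, being 3.46 with a pseudocount of 10.2 and 2.13 with one of 30.3. STMN3, another neuronal stathmin, was at 171, 323 and 203 in cerebellum and 108, 58.6 and 32.96 in liver, with the lowest cerebellum array still above the highest liver array and a difference of 1.63 (SE 0.35, limma adjusted p = 0.00485). Liver replicate 3 read highest of the livers for STMN1 and lowest for STMN2 and STMN3.

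Of the 3 end-binding proteins, which track growing plus ends, 2 were higher in cerebellum (66.7%), beside 26.7% of all features. MAPRE3, or EB3, the neuronal form, was at 596, 586 and 615 in cerebellum and 52.6, 61.3 and 55.7 in liver, and its difference was 3.07 (SE 0.16, limma adjusted p = 1.26e-06). MAPRE2, or EB2, was at 391, 414 and 614 in cerebellum and 82.01, 113 and 271 in liver. Liver replicate 3 stood above the other livers for MAPRE2, and the difference of 1.64 became 2.08 without it. MAPRE1, or EB1, the ubiquitous form, was at 467, 489 and 447 in cerebellum and 305, 335 and 514 in liver, with tissues that overlapped only through liver replicate 3. It differed by 0.31 (limma adjusted p = 0.274), and without liver replicate 3 it was called higher in cerebellum at 0.52 (adjusted p = 0.0321). Each of these 3 genes is compared with itself across tissues, since levels of different features are not comparable.

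**Figure D2:**
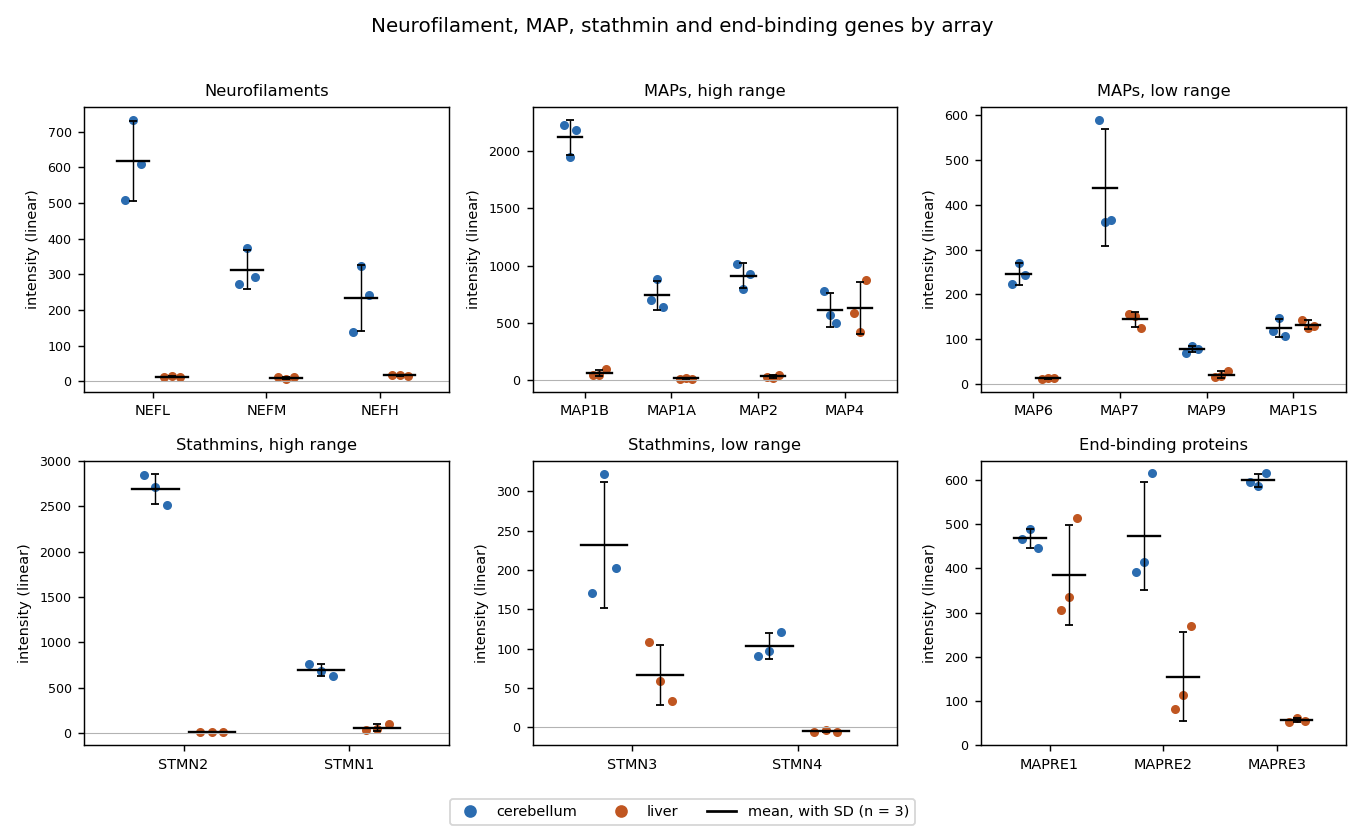
Intensity of neurofilament, MAP, stathmin and end-binding genes on each array (points, replicates 1 to 3 from left to right), with the mean and SD of 3 arrays per tissue, on linear axes that differ between panels. MAP4, MAP1S and MAPRE1 have overlapping tissues, while the 3 arrays of cerebellum lie above those of liver for all other genes shown.

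Kinesin-1, the main motor of fast axonal transport, is a pair of heavy chains (KIF5A, KIF5B or KIF5C) with a pair of light chains that bind cargo. KIF5A, one of the neuronal heavy chains, was at 1481, 1042 and 1177 in cerebellum and 13.8, 17.6 and 16.2 in liver. KIF5C, the other neuronal form, was at 1785, 993 and 1651 in cerebellum and 5.18, 6.02 and 6.03 in liver. KIF5B, the form found in most cells, was at 234, 186 and 192 in cerebellum and 178, 208 and 216 in liver. The neuronal forms were bright in cerebellum and dim in all livers, with log2 differences of 5.25 and 6.01 (SE 0.19 and 0.24), and KIF5C ranked 8th of all features toward cerebellum. The tissues overlapped for KIF5B, whose difference was 0.02 with a 95% interval of -0.38 to 0.42. For KIF5A and KIF5C, cerebellum replicate 2 was the lowest.

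KLC1 and KLC2 were higher in cerebellum and KLC4 was not called. KLC1, the light chain known best from neurons, was at 1293, 1390.2 and 1694 in cerebellum and 212, 189 and 345 in liver, a log2 difference of 2.51 (SE 0.24). KLC2 was at 318, 378 and 337 in cerebellum and 39.7, 46.1 and 55.1 in liver, a difference of 2.51 (SE 0.17). Neither overlapped between tissues. KLC4 was at 197, 134 and 161 in cerebellum and 272, 342 and 188 in liver, lying the other way at -0.63, but liver replicate 3 fell below cerebellum replicate 1 and the call was missed (limma adjusted p = 0.0606). Without liver replicate 3 it was called higher in liver at -0.85 (adjusted p = 0.0130).

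Kinesin-2 and kinesin-3 carry vesicles, mitochondria and ciliary cargo. Of 10 genes measured, 5 were higher in cerebellum (50%), 2 were higher in liver (20%) and 3 were not called. Over all features the shares were 26.7% and 23.9%, so the share toward liver was near that of all features. KIF1A, the motor of synaptic vesicle precursors, was at 550.5, 705 and 589 in cerebellum and 41.4, 40.4 and 31.1 in liver, a log2 difference of 3.54 (SE 0.18). KIF1B, which carries mitochondria or synaptic vesicle precursors according to its splice form, was at 2033, 1481 and 1872 in cerebellum and 257, 207 and 195 in liver and differed by 2.93 (SE 0.19). KIF1C, a widely expressed relative that moves vesicles between Golgi and periphery, was at 223, 117 and 148 in cerebellum and 495, 407 and 446 in liver. For KIF1C the livers were all above the cerebella, with a difference of -1.42 (SE 0.23, limma adjusted p = 0.00114).

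The KIF13 genes also lay in opposite directions. KIF13A, a motor of endosomes, was at 442, 307 and 349 in cerebellum and 188, 169 and 204 in liver, and was higher in cerebellum by 0.90 (SE 0.19). KIF13B, which transports membrane proteins and signalling lipids, was at 84.3, 59.7 and 58.6 in cerebellum and 279, 237 and 242 in liver. The arrays of the tissues did not overlap for either gene, and KIF13B had the largest difference toward liver of all 80 genes, -1.69 (SE 0.19, limma adjusted p = 1.05e-04).

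Within kinesin-2, KIF3A, the shared motor subunit of the complexes, was at 687, 481 and 628 in cerebellum and 18.9, 36.6 and 47.5 in liver, a difference of 3.62 (SE 0.25). KIF3C, a partner of KIF3A in neurons, was at 159, 187 and 154 in cerebellum and 47.01, 43.5 and 42.1 in liver and differed by 1.58. KIF3B, the other partner of KIF3A, was at 129, 165 and 160.3 in cerebellum and 128, 164 and 106 in liver, and its tissues overlapped, with a difference of 0.18 and an interval of -0.28 to 0.64. KIF16B, a motor of early endosomes, and KIF17, a motor of dendrites and cilia, differed by 0.13 and 0.02 with intervals of -0.32 to 0.58 and -0.50 to 0.55.

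**Figure D3:**
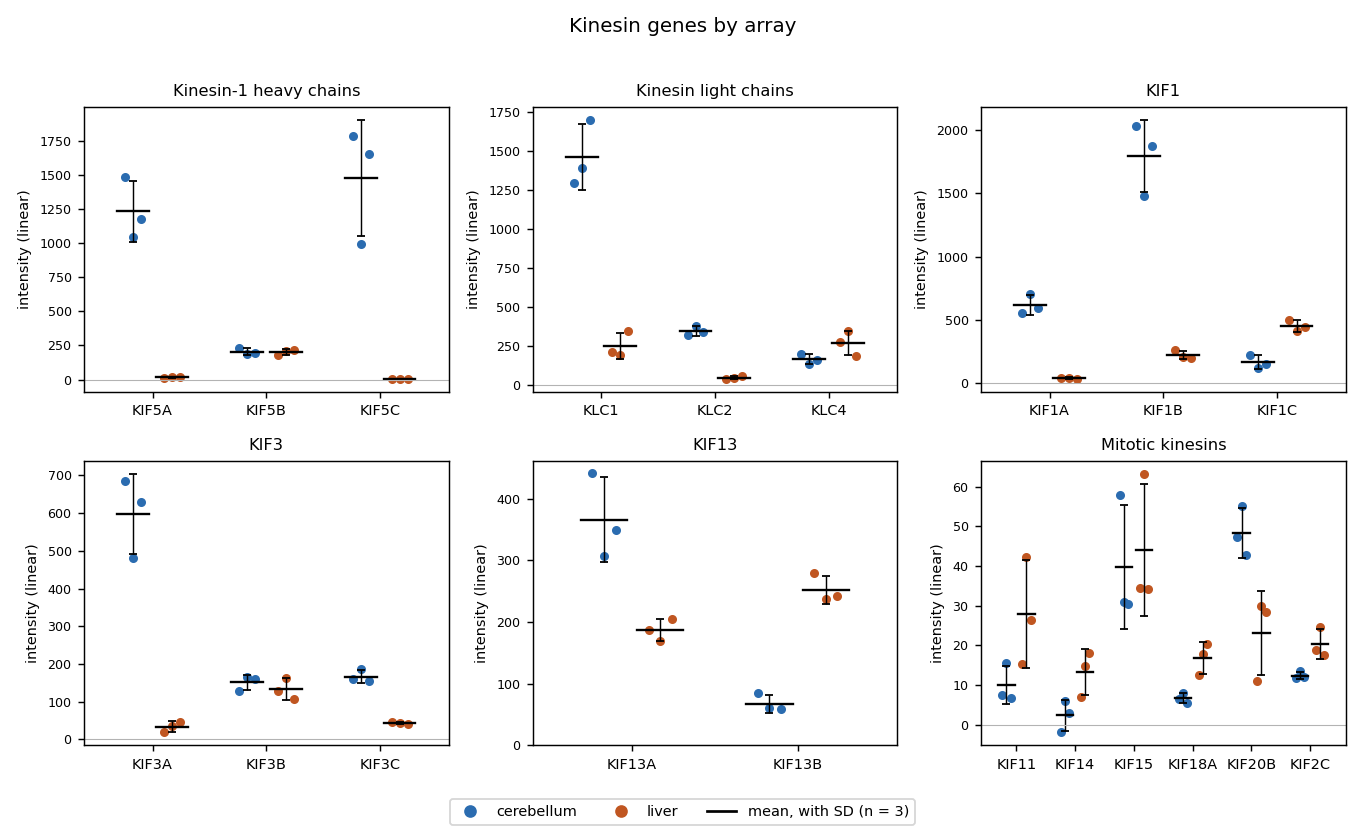
Intensity of kinesin genes on each array (points, replicates 1 to 3 from left to right), with the mean and SD of 3 arrays per tissue, on linear axes that differ between panels. KIF5A and KIF5C are high in cerebellum and dim in liver, KIF5B overlaps with means of 204 and 201, KIF1C and KIF13B are higher in liver, and the mitotic kinesins reach at most 63.3 (KIF15 in liver replicate 2).

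The contrast between close relatives was also computed as the change of their ratio within each array, in which a shift of a whole array on the log2 scale cancels. Over 34 pairs of relatives from 15 families, chosen after the values were seen and leaving out genes dim in both tissues, an exact two-sided permutation of 3 against 3 arrays cannot give a p under 0.1, and the smallest Benjamini-Hochberg adjusted value over the pairs was 0.126. The tissues did not overlap for 27 of the 34 pairs, and each of these had that smallest p of 0.1. Of single features 59.4% did not overlap, and the share for pairs of any features was not computed. Pairs of the same family can share a gene. In 15 pairs both genes were above the dim limit in both tissues, and 12 of these did not overlap. The other pairs hold a gene dim in a tissue, so their values depend on the pseudocount. The next 5 ratios are among the 27 pairs. The log2 ratio of KIF1B to KIF1C was higher in cerebellum by 4.35, that of KIF13A to KIF13B by 2.59, that of KLC1 to KLC4 by 3.14 and that of MAPRE3 to MAPRE1 by 2.77. KIF5A against KIF5B moved by 5.23, a value that depends on the pseudocount because KIF5A was dim in liver. The ratio of KLC1 to KLC2 moved by 0.0029 (exact permutation p = 1.0), with an SD of 0.23 among the cerebella and 0.31 among the livers.

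Mitotic kinesins, which build and drive the spindle, read low on all 6 arrays. Of 6 measured, 1 was called higher in cerebellum (16.7%), 3 were called higher in liver (50%) and 2 were not called. Over all features the shares were 26.7% and 23.9%. In both tissues 4 of the 6 were dim. KIF20B, a motor of cytokinesis, was at 47.3, 55.1 and 42.7 in cerebellum and 10.9, 29.9 and 28.4 in liver, a log2 difference of 0.75 (limma adjusted p = 0.0269). KIF11, the motor that pushes spindle poles apart, was at 7.57, 15.5 and 6.78 in cerebellum and 15.2, 42.2 and 26.5 in liver, with overlapping tissues and a difference of -0.71 (adjusted p = 0.044). KIF14, of the midbody, and KIF18A, which limits chromosome movement, were called toward liver at -0.60 and -0.52 (adjusted p = 0.0415 and 0.0329).

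All 4 calls depended on single arrays. That of KIF20B was lost without any 1 cerebellum array or without liver replicate 1 (adjusted p from 0.0529 to 0.0784). Those of KIF11, KIF14 and KIF18A were lost when cerebellum replicate 1 or 3, or liver replicate 2 or 3, was left out (adjusted p from 0.0694 to 0.145), and with the arrays aligned on general genes (0.136 to 0.322). KIF15, a second spindle motor, and KIF2C, which takes microtubules apart at the centromere, differed by -0.10 and -0.34 and were not called. Among 19 measured markers of dividing cells, 1 was called higher in cerebellum (5.3%) and 4 higher in liver (21.1%), beside 26.7% and 23.9% of all features. Of these markers, 9 stayed dim on every array, and MKI67 and ASPM read below 0 on 1 array each. Their summed intensity was 403 to 648 in cerebellum and 447 to 646 in liver, and their part in the kinesin values was not tested.

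Of the 11 other kinesins, 2 were higher in cerebellum (18.2%), 0 were higher in liver and 9 were not called. Both shares were below those of all features, 26.7% and 23.9%. The median of the 11 was 0.09. KIF2A, which shortens microtubules and prunes axon branches, was at 456, 429.8 and 487 in cerebellum and 86.7, 84.6 and 152 in liver, a log2 difference of 1.97 (SE 0.23). KIF21A, a kinesin that slows microtubule growth, was at 338, 328 and 453 in cerebellum and 138, 119 and 188 in liver, a difference of 1.25 (SE 0.22). Neither overlapped between tissues, and liver replicate 3 read highest of the livers for both. The 9 others, KIF2B, KIF6, KIF12, KIF21B, KIF24, KIF25, KIF26A, KIF26B and KIFC3, differed by -0.48 to 0.21, and KIF2B, KIF6, KIF12 and KIF24 were dim in both tissues.

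The heavy chain, 1 intermediate chain and 1 light intermediate chain of dynein were higher in cerebellum, and 2 light chains were higher in liver. Of 13 dynein genes, 4 were higher in cerebellum (30.8%), 2 were higher in liver (15.4%) and 7 were not called, so 46.2% were called, near the 50.6% of all features. DYNC1I1, the intermediate chain known from neurons, was at 845, 853 and 890.5 in cerebellum and 5.33, 11.6 and 12.3 in liver. Its cerebellum arrays differed little from each other and its liver arrays were all dim, a log2 difference of 5.06 (SE 0.18, limma adjusted p = 2.32e-07). DYNC1H1, the heavy chain that holds the motor, was at 901, 816 and 913 in cerebellum and 281, 272 and 464 in liver, a difference of 1.37 (SE 0.23). DYNC1LI2, a light intermediate chain that links the motor to cargo adaptors, was at 1053, 894 and 895 in cerebellum and 264, 259 and 368 in liver, a difference of 1.63, while its relative DYNC1LI1 was at 135, 141 and 182 in cerebellum and 142, 119.5 and 118 in liver and overlapped, with a difference of 0.23 and an interval of -0.18 to 0.65.

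Light chains of dynein went both ways. DYNLL2, a light chain of the LC8 family shared with myosin V, was at 432, 524 and 437 in cerebellum and 239, 277 and 234 in liver, a difference of 0.85 (limma adjusted p = 0.00326). DYNLT1, a light chain of the Tctex family, was at 33.5, 33.6 and 27.9 in cerebellum and 65.2, 144 and 189.8 in liver. All 3 livers lay above all 3 cerebella for DYNLT1 although liver replicate 1 was far below the other two, and the difference was -1.53 (SE 0.32, adjusted p = 0.00383) or -1.91 without that array. DYNLT3, its relative, was at 115, 179.9 and 169 in cerebellum and 239.6, 223 and 296 in liver, a difference of -0.67 (adjusted p = 0.0286), and was not called without cerebellum replicate 1 or 3 or liver replicate 3 (adjusted p from 0.0567 to 0.107) or with arrays aligned on general genes (0.162). DYNLRB1, a roadblock light chain, was at 537, 673 and 502 in cerebellum and 298, 416 and 463 in liver, which did not overlap, and missed the threshold at 0.53 (adjusted p = 0.0687). The subunits of the ciliary dynein DYNC2I1, DYNC2I2 and DYNC2LI1 differed by 0.49, 0.12 and 0.20 and were not called, and DYNLT2 and DYNLRB2 were dim in both tissues. Of 10 markers of motile cilia, 0 were higher in cerebellum and 2 in liver (20%), beside 26.7% and 23.9% of all features. Their summed intensities were 268 to 334 in cerebellum and 284 to 356 in liver.

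Of 5 dynactin subunits, 3 were higher in cerebellum (60%) and 0 in liver, beside 26.7% and 23.9% of all features, with a median of 0.47. DCTN1, which makes the arm that grips dynein and the microtubule, was at 398, 391 and 384 in cerebellum and 178, 153 and 137 in liver, with little spread within a tissue and a difference of 1.25 (SE 0.17, limma adjusted p = 3.32e-04). DCTN5, a subunit of the pointed end, was at 1343, 941 and 797 in cerebellum and 520.4, 540.3 and 534 in liver, a difference of 0.89 (adjusted p = 0.00799), with a wide spread among the cerebella. DCTN4 was at 478, 442 and 505 in cerebellum and 304, 329 and 389.7 in liver, a difference of 0.47 that stood at the threshold (adjusted p = 0.0498) and was lost without any 1 array but liver replicate 3 (adjusted p from 0.0601 to 0.164). DCTN2, which joins the arm to the filament, and DCTN6 differed by 0.32 and 0.32 and were not called on the deposited scale. All 5 subunits were called with arrays aligned on general genes, which moved every feature toward cerebellum. DCTN2 is the gene next to KIF5A in the same RefSeq order, and the pair differed between tissues by 0.32 and 5.25.

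Of the tubulins measured as single genes, TUBB4A, the beta-tubulin of neurons and oligodendrocytes, was at 1268, 1467 and 1025 in cerebellum and 10.8, 4.37 and 20.03 in liver, a log2 difference of 5.50 (SE 0.24) that ranked 24th of all features toward cerebellum. TUBA8 was at 387, 442 and 329.9 in cerebellum and 11.4, 14.9 and 22.9 in liver, a difference of 3.61 (SE 0.20). For both genes every cerebellum array lay far above every liver array. TUBB6, a beta-tubulin of non-neuronal cells, was at 22.6, 59.4 and 24.9 in cerebellum and 42.4, 83.9 and 149 in liver, higher in liver on average at -0.99 but overlapping and not called (limma adjusted p = 0.065), and it was called without cerebellum replicate 2 (-1.30, adjusted p = 0.0345) or liver replicate 1 (-1.37, adjusted p = 0.0154). TUBAL3 was dim in both tissues. Tubulin genes are close in sequence, and a feature of one can take up signal from another.

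Of 7 genes of gamma-tubulin and its complex, which nucleates microtubules, 4 were higher in cerebellum (57.1%), 1 was higher in liver (14.3%) and 2 were not called. Over all features the shares were 26.7% and 23.9%. TUBG2, the gamma-tubulin known from brain, was at 345, 269 and 245 in cerebellum and 93.3, 127 and 113 in liver, a difference of 1.24 (SE 0.20). TUBG1, the common gamma-tubulin, was at 131, 199.8 and 150.3 in cerebellum and 207, 295 and 279.9 in liver, a difference of -0.65 (SE 0.22, limma adjusted p = 0.0337). The 2 genes lay in opposite directions, without overlap in either, and the log2 ratio of TUBG2 to TUBG1 was 1.89 higher in cerebellum (exact permutation p = 0.1, the smallest that 3 against 3 arrays allow). The call of TUBG1 was lost with arrays aligned on general genes (-0.37, adjusted p = 0.142) and when cerebellum replicate 1 or 3, or liver replicate 2 or 3, was left out (adjusted p from 0.0735 to 0.123). Only 1 coding gene lies between TUBG1 and TUBG2 in the RefSeq order. They are near-identical copies and can share signal.

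Among the subunits that hold gamma-tubulin in its ring, TUBGCP5 was at 185, 222 and 183 in cerebellum and 60.4, 107 and 82.5 in liver and TUBGCP6 at 182, 155 and 175 in cerebellum and 92.7, 77.9 and 83.7 in liver, differences of 1.11 and 0.88 without overlap. TUBGCP3 differed by 0.48 (limma adjusted p = 0.0497), a call lost without any 1 cerebellum array, liver replicate 1 or liver replicate 3 (adjusted p from 0.0839 to 0.122). TUBGCP2 and TUBGCP4 differed by 0.08 and -0.36 and were not called.

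**Figure D4:**
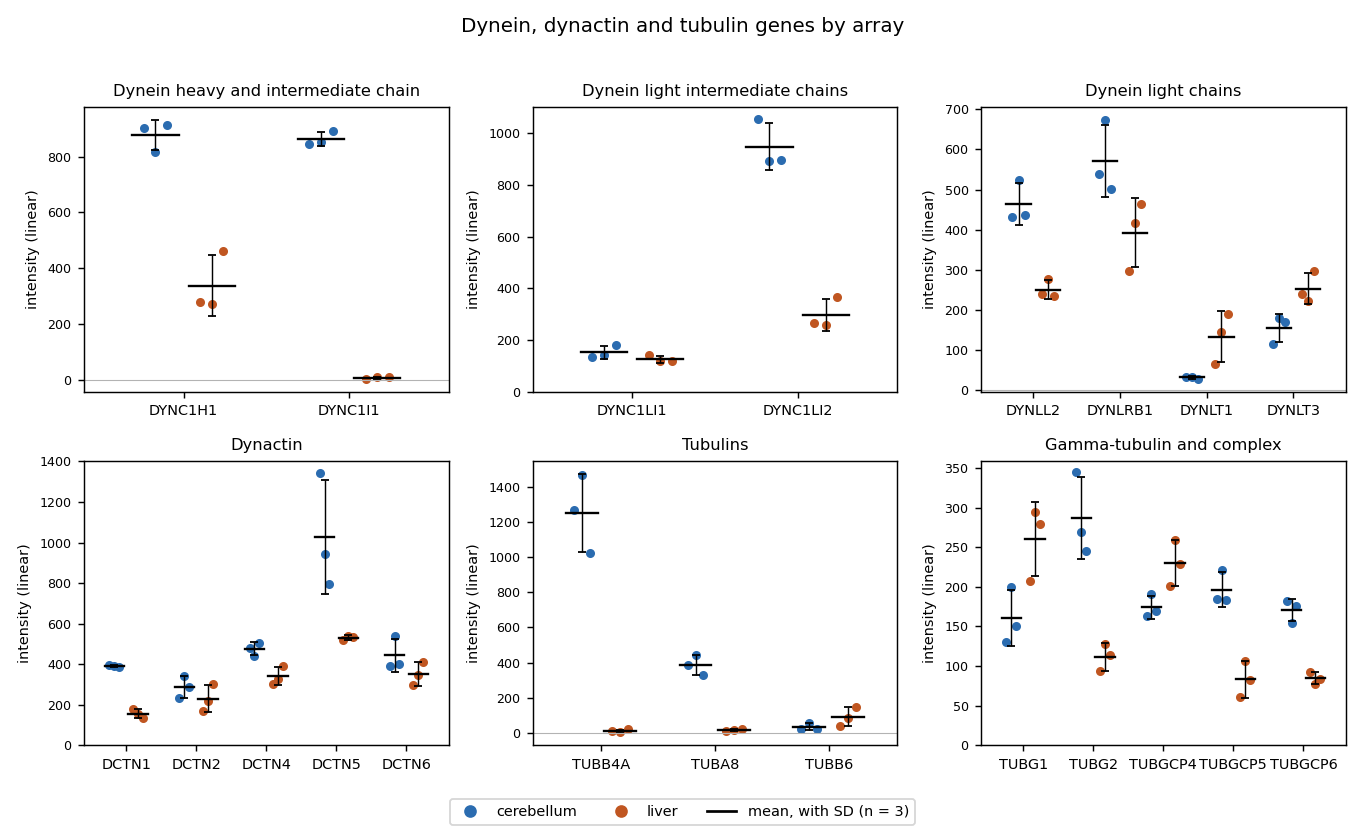
Intensity of dynein, dynactin and tubulin genes on each array (points, replicates 1 to 3 from left to right), with the mean and SD of 3 arrays per tissue, on linear axes that differ between panels. DYNC1I1, TUBB4A and TUBA8 are high in cerebellum and near 0 in liver, DYNLT1, DYNLT3 and TUBG1 are higher in liver, and DYNC1LI1, DCTN2 and DCTN6 overlap.

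The genes also varied among animals within a tissue. The median SD on the log2 scale was 0.20 in cerebellum and 0.22 in liver over the 80 genes, against 0.20 and 0.26 over all features. In cerebellum the widest spreads were those of NEFH, TUBB6, KIF5C and STMN3, with SDs of 0.58, 0.53, 0.45 and 0.44, and in liver those of MAPRE2, TUBB6, STMN1 and DYNLT1, with SDs of 0.80, 0.74, 0.69 and 0.69. By the median of the group, kinesin-1 genes and kinesin-2 and kinesin-3 genes lay highest in cerebellum replicate 1, at 0.34 and 0.30 above the mean of the other 2 arrays. Their medians were lowest in replicate 2, at -0.26 and -0.30. Not all members had this order. Replicate 1 was the highest cerebellum for 4 of 6 kinesin-1 and light chain genes and the lowest for 2. It was the highest for 6 of 10 kinesin-2 and kinesin-3 genes and the lowest for 2. Neurofilaments had the reverse of this median order, at -0.38 in replicate 1 and 0.39 in replicate 2. Granule cell markers were at -0.27 and 0.30, Purkinje markers at -0.54 and 0.66 and astrocyte markers at -0.35 and 0.61 in those arrays. Markers of endothelium and of macrophages and microglia were also high in cerebellum replicate 2, at 0.73 and 0.53. The median of oligodendrocyte markers was 0.89 for replicate 1 and -0.37 for replicate 2, with summed intensities of 6009, 1964 and 2513 in replicates 1, 2 and 3 and 329 to 398 in liver. All 6 measured oligodendrocyte markers were higher in cerebellum and none read 0 or below. Their part in the order of the kinesins was not tested.

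Liver replicate 3 was the highest liver for 36 of the 80 genes (45.0%), against 34.5% of all features. Of the 40 genes called higher in cerebellum, it was the highest liver for 20 and the lowest for 12. The same shares over all features called higher in cerebellum were not computed. In that array beta-tubulins (2 genes) lay 0.86, end-binding proteins 0.66, dynactin subunits 0.29 and structural MAPs 0.26 above the other livers, while stathmins were at -0.18, kinesin-2 and kinesin-3 genes at -0.15 and neurofilaments at -0.08. Markers of other cell types were also high there: 6 fibroblast and stellate cell markers summed to 1420, 1343 and 4126 in liver replicates 1, 2 and 3 and to 221 to 605 in cerebellum, and 7 macrophage markers to 4048, 4073 and 7085 and to 214 to 436. No marker of either list was at or below 0 on any array. Bile duct, endothelial, lymphocyte and dividing cell markers lay 0.81, 0.60, 0.54 and 0.29 above the other livers. Hepatocyte markers lay the other way at -0.12, with sums of 33979, 31742 and 28061 in replicates 1, 2 and 3. Replicate 3 was the lowest liver for 6 of these 9 markers (66.7%, beside 37.4% of all features) and the highest for 2. The part of these cells in the readings of liver replicate 3 was not tested. Without liver replicate 3, 41 members were higher in cerebellum and 4 in liver.

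**Figure D5:**
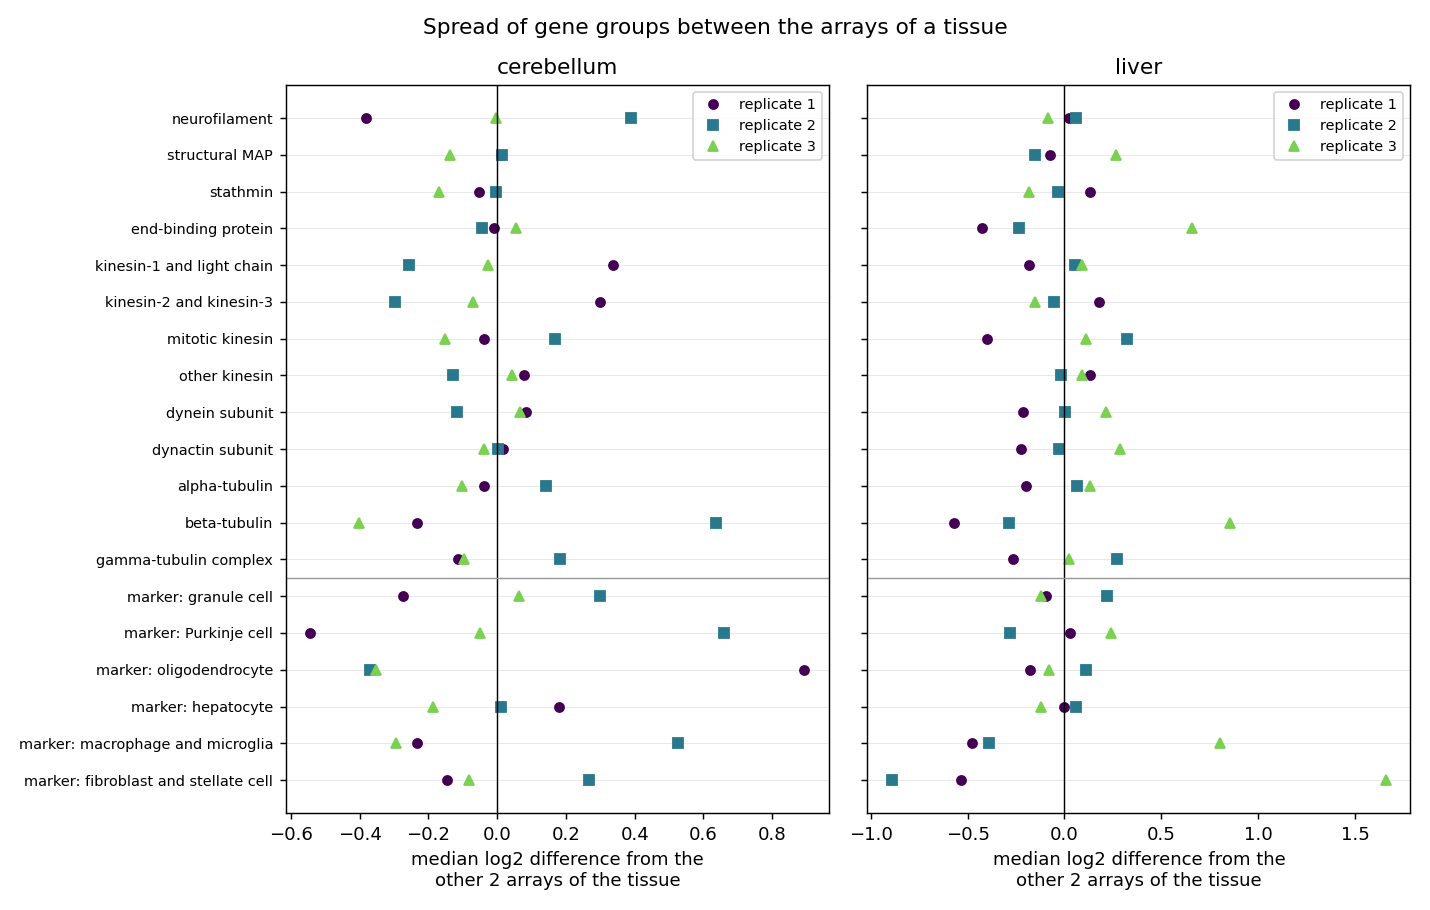
Median log2 difference of each array from the mean of the other 2 arrays of its tissue, for each group of the 80 genes (above the grey line) and for marker lists (below it). In cerebellum neurofilaments and Purkinje markers are low in replicate 1 (-0.38 and -0.54) and high in replicate 2, kinesin-1, kinesin-2 and kinesin-3 genes and oligodendrocyte markers are high in replicate 1, and in liver end-binding proteins and fibroblast markers are high in replicate 3 (0.66 and 1.66).

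Genes that work with these motors and filaments, from lists set by function outside the rule, were counted in the same fit. Of 18 proteins that bind plus ends, minus ends or the lattice of microtubules, 16 were higher in cerebellum (88.9%) and 0 in liver. Over all features the shares were 26.7% and 23.9%. The median of these 18 was 2.17. CLIP3, a linker of membranes to microtubules, differed by 3.98 and DCLK1, a kinase related to doublecortin, by 3.30. Of 14 motor cofactors and cargo adaptors, 9 were higher in cerebellum (64.3%) and 0 in liver, with a median of 1.25. The largest were CRMP1 and DPYSL2, tubulin-binding proteins of axon growth, at 3.10 and 3.00. KIFAP3, which completes the kinesin-2 complex and is named outside the rule for named genes after its value was seen, was at 498, 457 and 558 in cerebellum and 120.3, 92.4 and 107 in liver, a log2 difference of 2.08.

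Of 19 genes of tubulin folding, modification and severing, 7 were higher in cerebellum (36.8%) and 4 in liver (21.1%), beside 26.7% and 23.9% of all features, with a median of 0.37. TTLL7, which adds glutamate chains to beta-tubulin, differed by 3.40 and AGTPBP1, which trims them, by 2.60. HDAC6, the main tubulin deacetylase, was at 144, 119 and 141 in cerebellum and 224, 238 and 362 in liver, a difference of -0.92, and VASH2, a tubulin detyrosinating enzyme, differed by -0.86. The 4 calls toward liver of this list were all lost with arrays aligned on general genes, which moved every feature toward cerebellum. Of 9 other intermediate filament genes, 3 were higher in cerebellum and 3 in liver (33.3% each), beside 26.7% and 23.9% of all features. INA, alpha-internexin, which joins neurofilaments, was at 516, 991 and 905 in cerebellum and 15.8, 32.2 and 12.1 in liver, a difference of 4.46, and GFAP, the filament of astrocytes, differed by 2.49. KRT18, a keratin of hepatocytes, was at 32.2, 54.6 and 53.6 in cerebellum and 1219, 1403 and 2715 in liver, a difference of -4.75, and VIM, vimentin of mesenchymal cells, differed by -2.93.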

How the data were processed

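Total RNA was reduced in ribosomal RNA, labelled with biotin as sense-strand DNA and hybridised to 1 array per sample, per the labels' protocols. The deposited table holds 1 linear intensity per feature and array, and the submitters' processing notes name GCOS. For background correction, normalization and the summary of exon probes, the method is not given in the sources used here. Sorted intensities of all 6 arrays were identical, so overall shifts between tissues cannot be seen.

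Gene names came from the platform annotation, and all 80 symbols matched the chimpanzee RefSeq gene table. Values below 0 were set to 0, 16.8 (the 10th percentile) was added, and log2 values were fitted with limma 3.58.1 in R 4.3.3 (lmFit and eBayes, two-sided), cerebellum against liver, with Benjamini-Hochberg adjustment over 15143 features and a threshold of 0.05. A log2 difference on this scale understates the change of dim genes. The procedure was also run on simulated data with known changes, in which far fewer features changed than were called here. That run does not measure the error rate in these data. The number of arrays, 3 per tissue, limits the precision, and p-values cover only the spread between these samples, which the labels call biological replicates.

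Members, roles and lists were chosen with earlier results of these data known. Genes were named by this rule: in each role the 3 largest called differences without overlap in each direction, every neurofilament, stathmin, structural MAP, end-binding, kinesin-1, light chain, alpha- and beta-tubulin and DYNC1 intermediate chain gene, and the 2 largest called each way in the related lists. Other members named, the mitotic kinesins and KIF3B among them, were chosen after their values were seen. Same-numbered cerebellum and liver samples share labelled sex and age, but the correlations of their deviations were 0.11, 0.16 and -0.14, so the samples were not treated as pairs. Alternatives were other pseudocounts, leaving out dim features, a replicate block, alignment on general genes, array weights, the mean of features sharing a symbol, and leaving out each array.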

Additional observations from a re-analysis of the deposited data

How the results depend on the processing

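Of the 48 members called, 40 kept their call in every one of the 13 alternatives they entered, and no called difference reversed. The 8 others (KIF20B, KIF18A, KIF14, KIF11, DYNLT3, DCTN4, TUBGCP3 and TUBG1) lost it without at least 1 array, and 10 members gained a call in some alternative. Members higher in cerebellum numbered 38 to 44, and 37 to 41 with 1 array left out. Members higher in liver, 8 on the main setting, were 5 with a pseudocount of 30.3, 5 without dim features, 3 with arrays aligned on general genes, 13 with array weights, and 3 to 10 with 1 array left out (3 without cerebellum replicate 1 or 3, 4 without liver replicate 2 or 3). Members at least 2-fold higher in cerebellum numbered 32 to 38, and those 2-fold higher in liver 3 to 4.

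By role, calls toward liver changed as follows. Mitotic kinesins went from 3 to 0 with the pseudocount of 30.3, without dim features and with alignment. They went to 4 with array weights, where KIF2C gained a call, and ranged from 0 to 3 with 1 array left out. Dynein subunits went from 2 to 1 with alignment (1 to 2 with 1 array left out). The gamma-tubulin group went from 1 to 0 with alignment and to 2 with array weights (0 to 1). Kinesin-1 with its light chains and the other kinesins each went from 0 to 1 with array weights (0 to 1). Beta-tubulin went from 0 to 1 with the replicate block and with array weights (0 to 1). The list of tubulin folding, modification and severing went from 4 to 0 with alignment (2 to 3). Toward cerebellum, dynactin went from 3 to 5 with alignment, and mitotic kinesins ranged from 0 to 1 with 1 array left out. The causes were not tested, except that leaving out dim features removes 11 members from the fit.

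With the replicate block, 38 members were higher in cerebellum and 8 in liver: KIF18A, DCTN4 and TUBGCP3 lost their calls and TUBB6 gained one (limma adjusted p = 0.0385). Deviations of cerebellum replicate 3 correlated best with liver replicate 1 (0.24), so not every sample correlated best with its own number. This does not show that same-numbered samples came from different animals.

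Genes dim in liver have tissue differences that depend on the pseudocount. Features for several genes, and close relatives such as the tubulins, limit what a single symbol stands for.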
